A study of Homo sapiens with 6 samples.

Results

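The collagen chains are the products of the genes named COL, a type number, A and a chain number. All gene symbols of that form in the count tables were taken as members, which gave 44 of 19923 genes: 11 fibrillar chains, 6 chains of basement membrane type IV, 5 chains of type VI and 22 chains of other classes. RNA-seq libraries from poly(A)-selected RNA measured them in Kelly cells, an established human neuroblastoma line labelled as MYCN-amplified and of wild-type genotype. The groups differ in the siRNA that the cells received 72 hours before harvest. In siControl (3 libraries) it was a control, and in siMETTL3 (3 libraries) it targeted METTL3, the catalytic subunit of the enzyme complex that writes N6-methyladenosine in mRNA. The labels do not say whether the libraries of a group came from separate cultures, so p-values measure the spread between these libraries, which may be technical, and all of them come from 1 cell line.

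A collagen molecule is a triple helix of 3 chains, either identical or products of different genes. Each chain holds long stretches of the repeat Gly-X-Y, since only glycine is small enough to sit at the centre of the helix. Fibrillar collagens assemble into the cross-striated fibrils of connective tissue, type IV collagen forms the network of basement membranes, type VI collagen forms beaded microfilaments around cells, and FACIT chains decorate the surface of fibrils. Multiplexins sit at basement membranes, and transmembrane collagens are anchored in the cell membrane by their N-terminal end. In tumours, much of the collagen is laid down by stromal cells, which a culture of a tumour cell line lacks.

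The repeat was read from the coding sequence of the canonical transcript of each gene (GENCODE release 44). The longest uninterrupted run with a glycine codon (GGN) every 3 codons ranged from 23 to 343 repeats in the 44 chains, with a median of 60.5. A run of at least 10 repeats was present in 44 of 44 chains and in 53 of 18955 other genes of the table (0.280%). Stretches of 45 bases from the longest run are shown for the 4 chains with the most counts among those that rose at least 2-fold and for a pair that fell, each lying within 1 exon, with the first codon of each repeat, a glycine codon, in capitals.
COL6A6: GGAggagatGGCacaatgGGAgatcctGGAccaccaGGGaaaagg
COL23A1: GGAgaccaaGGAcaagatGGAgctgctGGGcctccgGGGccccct
COL5A1: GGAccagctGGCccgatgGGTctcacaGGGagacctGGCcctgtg
COL18A1: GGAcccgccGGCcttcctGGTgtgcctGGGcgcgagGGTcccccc
COL2A1: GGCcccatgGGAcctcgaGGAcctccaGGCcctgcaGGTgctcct
COL4A2: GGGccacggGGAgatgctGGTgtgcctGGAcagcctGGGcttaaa
In GRCh38 these lie at chr3:130589138-130589182 (COL6A6, exon 12, plus strand), chr5:178263280-178263324 (COL23A1, exon 9, minus strand), chr9:134752601-134752645 (COL5A1, exon 14, plus strand), chr21:45480796-45480840 (COL18A1, exon 13, plus strand), chr12:47995875-47995919 (COL2A1, exon 9, minus strand) and chr13:110473069-110473113 (COL4A2, exon 29, plus strand). The fibrillar chains COL5A1 and COL2A1 hold runs of 338 and 339 repeats, whereas the longest run is 66 in COL4A2, 43 in COL23A1, 42 in COL6A6 and 30 in COL18A1, whose helices are broken by interruptions. The share of codons that lie in runs of at least 5 repeats went from 8.19% in COL12A1 to 85.5% in COL9A3.

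The libraries held between 15430000 (siControl replicate 3) and 21565013 counts. Collagen chains accounted for 0.0708% to 0.0805% of all counts in siControl and for 0.104% to 0.113% in siMETTL3. METTL3, the targeted gene, fell from 54.2 ± 1.80 to 33.04 ± 1.27 CPM (SD, n = 3), a log2 fold change of -0.71 with a standard error (SE) of 0.0696 (edgeR quasi-likelihood test, FDR 4.68e-06). CPM values are counts per 1000000 of the TMM-scaled library size, and FDR values are Benjamini-Hochberg values over all 15311 tested genes. The noradrenergic neuroblastoma markers PHOX2A, HAND2, GATA3, ISL1, TH, DBH, MYCN, CHGA and CHGB had counts in every library, and their levels were not alike in the groups. TH rose by a log2 fold change of 1.52 (edgeR FDR 1.89e-07) and MYCN by 0.62 (edgeR FDR 5.17e-06), while ISL1 had -1.18 (edgeR FDR 6.06e-08) and CHGB -0.56 (edgeR FDR 2.42e-05). Of 9 fibroblast or stromal markers, DCN, LUM, FAP and TWIST2 lay below 1 CPM on average and PDGFRB at 78.4 to 92.7 CPM, and the summed level was 132 to 151 CPM in siControl and 128 to 132 CPM in siMETTL3. Within that list ACTA2 fell (log2 fold change -1.31, edgeR FDR 6.20e-06, 71.2% of its span overlaps STAMBPL1) and PRRX1 rose (log2 fold change 0.90, edgeR FDR 0.0103). Of the 6 Schwann cell markers in the tables, S100B and CDH19 were at 0 in 5 of 6 libraries, and the summed level was 5.91 to 6.81 CPM in siControl and 7.21 to 8.94 CPM in siMETTL3. The largest part of that sum was SOX10 (mean 3.19 CPM), whose span lies wholly inside POLR2F (mean 61.6 CPM). Its reads cannot be told apart from those of POLR2F. The 5 endothelial markers summed to 6.04 to 7.56 and 7.34 to 10.5 CPM, of which VWF was the largest part. VWF rose (log2 fold change 0.68, edgeR FDR 0.00592), whereas PECAM1 and KDR had log2 fold changes of -0.95 and -0.94 and did not pass (edgeR FDR 0.143 and 0.131). The part of these marker changes and of other cell types in the collagen results was not tested.

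Of the 44 chains, 37 had enough counts to be tested, and 15 of these passed an FDR of 0.05 (40.5%), against 37.8% of all tested genes. The share of called chains was therefore near the background. In such bulk libraries a change in the number of cells that express a chain and a change in RNA per cell cannot be told apart. Their direction and size were uneven. There were 12 chains higher in siMETTL3 (32.4%, background 18.6%) and 3 lower (8.11%, background 19.2%). At least 2-fold higher were 8 chains (21.6%, background 2.74%), and 0 were at least 2-fold lower (background 0.607%). The median log2 fold change of the tested chains was 0.21, against -0.0021 over all tested genes. The 8 chains past 2-fold were COL6A5, COL6A6, COL23A1, COL18A1, COL5A1, COL13A1, COL9A2 and COL17A1, and the 3 that fell were COL2A1, COL4A2 and COL4A1. In all 15 called chains the values of the groups did not overlap. The groups were also apart in COL8A2, COL24A1, COL3A1 and COL25A1, which did not pass. The share of such genes over all genes was not counted, so this adds no support to the calls. COL6A5 is the one called chain that needed siMETTL3 libraries to pass the filter on low counts. In siControl, 1 library lay under the filter level of 0.490 CPM for this chain and the others lay above it. These counts are therefore a description of the chains and not a test of the family.

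**Figure D1:**
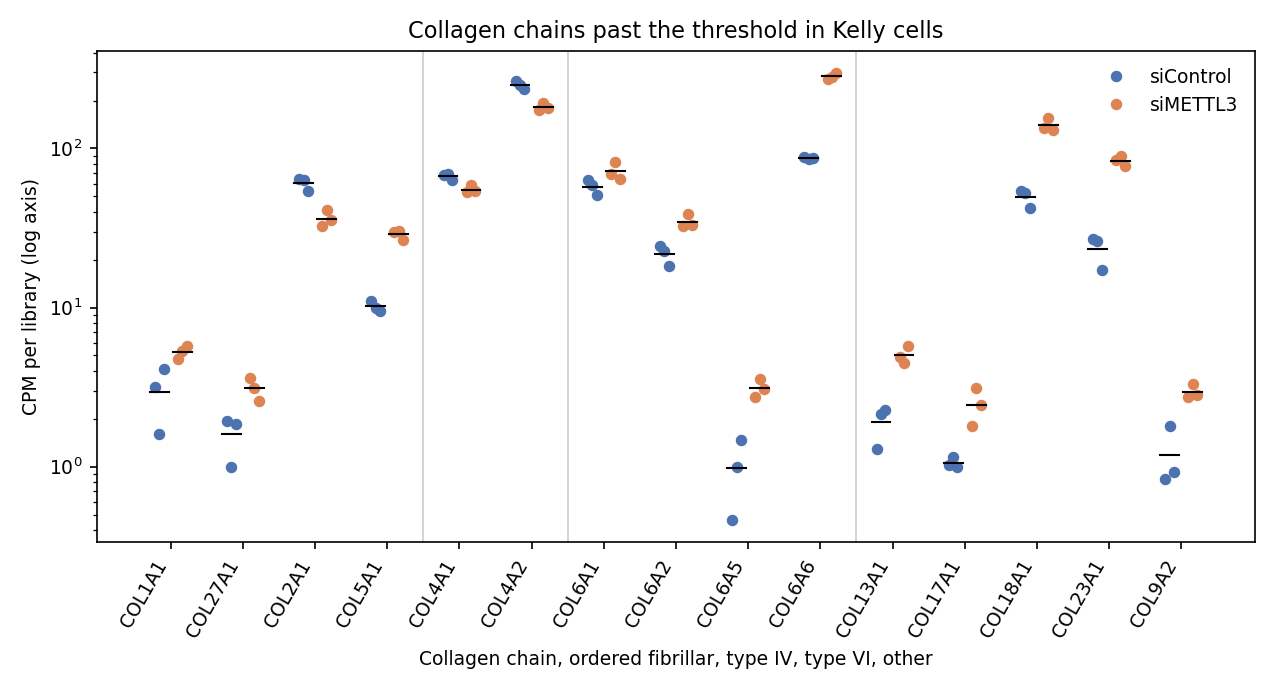
CPM (log axis) of the 15 collagen chains past the threshold, 1 point per library, with siControl in blue, siMETTL3 in orange and black bars at the group means of 3 libraries; vertical lines part the fibrillar, type IV, type VI and other classes. Of the 15 chains, 12 lie higher and 3 (COL2A1, COL4A1, COL4A2) lower in siMETTL3.

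Among the fibrillar chains, 3 rose, 1 fell, 5 did not pass the threshold and 2 were not tested (called 44.4% of those tested, background 37.8%). COL5A1 (chromosome 9, 134641803 to 134844843, plus strand) encodes the alpha1 chain of type V collagen, a minor component that starts fibrils and limits their width. It was measured at 11.03, 9.86 and 9.56 CPM in siControl and at 29.8, 30.3 and 26.5 CPM in siMETTL3. The lowest siMETTL3 library lay far above the highest siControl library. The rise was 2.83-fold (log2 fold change 1.502, SE 0.102, edgeR FDR 1.89e-07). COL5A2, its partner chain, stayed between 6.86 and 10.1 CPM in siControl and between 8.73 and 9.25 CPM in siMETTL3, with overlapping groups (log2 fold change 0.12, 95% interval -0.20 to 0.44, edgeR FDR 0.555).

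COL2A1 (chromosome 12, 47972967 to 48004554, minus strand) encodes the chain of type II collagen, the main collagen of cartilage. It was the fibrillar chain with the most counts, at 64.5, 63.0 and 54.2 CPM in siControl and 32.5, 40.8 and 35.3 CPM in siMETTL3. The fall was 1.68-fold (log2 fold change -0.75, SE 0.0923, edgeR FDR 3.92e-05), and it was the largest fall of a called chain. COL11A1, which encodes a chain of type XI collagen that co-assembles with type II, did not pass and stood at 22.02, 25.0 and 26.9 CPM against 19.8, 23.9 and 23.5 CPM (log2 fold change -0.13, 95% interval -0.35 to 0.09, edgeR FDR 0.344). The interval of COL11A1 excludes a fall as large as that of COL2A1.

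The chains of type I collagen, the most abundant collagen of bone, skin and tendon, were scarce. COL1A1 (chromosome 17, 50183289 to 50201632, minus strand) was at 3.15, 1.60 and 4.11 CPM in siControl and at 4.76, 5.33 and 5.70 CPM in siMETTL3. It rose 1.81-fold (log2 fold change 0.86, SE 0.261, edgeR FDR 0.0200), but the siControl libraries were widely spread, and the call was lost without siControl replicate 2 (log2 fold change 0.55, FDR 0.0708), siMETTL3 replicate 2 (FDR 0.0683) or siMETTL3 replicate 3 (FDR 0.0805). COL1A2, the other chain of the type I trimer, was not tested, with 13 counts in all 6 libraries together. COL27A1 (chromosome 9, 114155537 to 114312511, plus strand), a fibrillar chain known from cartilage, was at 1.95, 1.00 and 1.86 CPM and at 3.60, 3.12 and 2.58 CPM. It rose 1.94-fold (log2 fold change 0.96, SE 0.281, edgeR FDR 0.0155). That call was lost without siControl replicate 2 (FDR 0.0720), siMETTL3 replicate 1 (FDR 0.0707) or siMETTL3 replicate 2 (FDR 0.0501). COL3A1, a chain of distensible tissues such as vessels, was at 2.87, 2.30 and 2.39 CPM in siControl and 1.94, 1.56 and 1.36 CPM in siMETTL3 and did not pass (log2 fold change -0.64, edgeR FDR 0.0629). It passed among genes with at least 10 counts in every library.

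**Figure D2:**
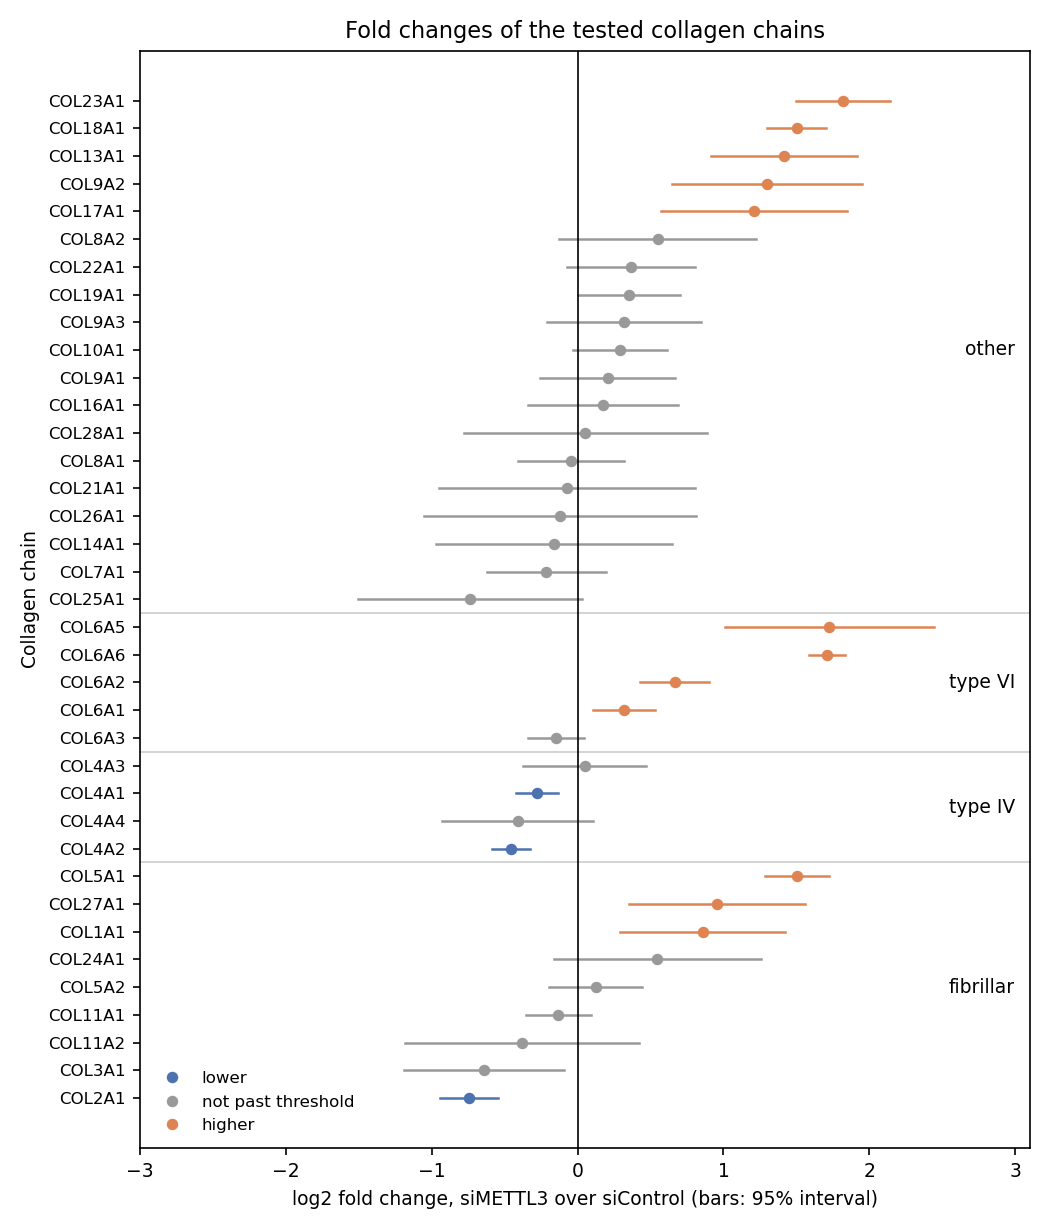
Log2 fold change of siMETTL3 over siControl with its 95% interval for each of the 37 tested collagen chains, grouped by class; orange chains are higher and blue chains lower at an FDR of 0.05 over all genes, and grey chains did not pass. The 8 chains beyond a log2 fold change of 1 all lie on the higher side, and the intervals are widest for chains with few counts.

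The type IV chains form the basement membrane network as trimers of 3 kinds, of which the one of 2 alpha1 chains and 1 alpha2 chain is the common one. Both of its genes fell, and of the other 4 type IV genes 2 did not pass and 2 were not tested. Of the tested type IV genes 50.0% were called (background 37.8%). COL4A2 (chromosome 13, 110305812 to 110513209, plus strand) was the chain with the most counts in the siControl cells, at 264, 249 and 236 CPM, and was at 175, 192 and 178 CPM in siMETTL3. It fell 1.37-fold (log2 fold change -0.46, SE 0.0612, edgeR FDR 6.91e-05). COL4A1 (chromosome 13, 110148963 to 110307157, minus strand) was at 68.1, 69.0 and 63.6 CPM in siControl and at 53.1, 58.6 and 53.7 CPM in siMETTL3. Its fall was smaller, 1.21-fold (log2 fold change -0.28, SE 0.0665, edgeR FDR 0.00456), although the groups did not overlap. COL4A3 and COL4A4, which with COL4A5 build the network of the kidney glomerulus, stayed under 5 CPM in every library and did not pass (log2 fold changes 0.05 and -0.41, edgeR FDR 0.874 and 0.202). COL4A5 and COL4A6 had 50 and 53 counts in all.

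COL4A1 and COL4A2 lie head to head and are transcribed from a shared promoter region, so the stretch between their RefSeq start sites (110307157 and 110307284) is shown here as the piece of sequence that both genes have in common. It spans 126 bases at chr13:110307158-110307283 (GRCh38.p14, plus strand, RefSeq), with a GC content of 80.2%. The capitals mark 1 match each to CCAAT, at position 22, and to GGGCGG, at position 62, both on the plus strand.
COL4A1-COL4A2: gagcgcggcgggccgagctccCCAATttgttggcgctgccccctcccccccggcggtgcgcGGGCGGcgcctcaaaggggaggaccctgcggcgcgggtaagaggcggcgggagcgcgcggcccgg
Searched on both strands of the 250 bases before each RefSeq start, CCAAT was found in 9 of 32 chains with an entry (28.1%) and in 32.0% of all 35116 windows, GGGCGG in 18 of 32 (56.2%) and in 42.6%, and TATAAA in 5 of 32 (15.6%) and in 10.7%. These matches describe the letters and are not measured binding sites. In the authors' annotation the COL4A2 span begins inside COL4A1 and the spans share 1346 bases, so reads there were counted for both genes. This is 0.851% of the COL4A1 span and 0.649% of the COL4A2 span.

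Type VI had the largest share of called chains among the 4 classes: 4 of its 5 chains rose (80.0%, background 18.6% higher and 37.8% called). That share includes COL6A5, which needed siMETTL3 libraries to pass the filter on low counts. It also includes COL6A1, whose call was lost in 2 of the fits that each left out a library. COL6A6 (chromosome 3, 130560334 to 130678155, plus strand) encodes one of the long chains that can take the place of alpha3 in the type VI trimer. It was at 88.3, 85.8 and 86.8 CPM in siControl and at 275, 282 and 297 CPM in siMETTL3, so that the libraries of each group lay close together and far from the other group. The rise was 3.27-fold (log2 fold change 1.71, SE 0.0567), with the smallest FDR of all chains (edgeR FDR 4.21e-10). The span in the authors' annotation begins downstream of the start that GENCODE release 44 gives COL6A6 and covers 73.0% of the current gene, so reads upstream of it were not counted. COL6A5 (chromosome 3, 130345516 to 130484844, plus strand), the neighbouring long chain, rose 3.31-fold from a low level, from 0.464, 1.00 and 1.46 CPM to 2.72, 3.54 and 3.07 CPM (log2 fold change 1.73, SE 0.334, edgeR FDR 0.00116).

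The short chains COL6A1 and COL6A2, which enter every type VI trimer, rose less. COL6A2 (chromosome 21, 46098112 to 46132848, plus strand) went from 24.4, 22.7 and 18.2 CPM to 32.5, 38.8 and 32.9 CPM, 1.59-fold (log2 fold change 0.67, SE 0.1102, edgeR FDR 0.000392). COL6A1 (chromosome 21, 45981769 to 46005050, plus strand) went from 62.9, 58.9 and 50.8 CPM to 69.2, 82.4 and 64.4 CPM. The gap between the groups was narrow there, with 62.9 CPM in the highest siControl and 64.4 CPM in the lowest siMETTL3 library. The rise was 1.25-fold (log2 fold change 0.32, SE 0.0978, edgeR FDR 0.0211), and it was no longer called without siControl replicate 2 (FDR 0.0553) or without siMETTL3 replicate 2 (log2 fold change 0.21, FDR 0.115). COL6A3, the usual alpha3 chain, was the exception of the class: it stood at 39.1, 34.5 and 31.2 CPM and at 31.8, 31.9 and 31.2 CPM (log2 fold change -0.15, 95% interval -0.34 to 0.04, edgeR FDR 0.206). Without siControl replicate 3 it passed the threshold on the lower side (FDR 0.0315).

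Of the 22 chains of other classes, 5 rose, 0 fell, 14 did not pass and 3 were not tested (called 26.3% of those tested, background 37.8%). COL18A1 (chromosome 21, 45405165 to 45513720, plus strand) encodes a multiplexin of basement membranes whose C-terminal fragment is endostatin. It was at 53.9, 52.4 and 42.0 CPM in siControl and at 135, 155 and 131 CPM in siMETTL3, with no siMETTL3 library near the control range. The rise was 2.83-fold (log2 fold change 1.501, SE 0.0942, edgeR FDR 2.71e-07). SLC19A1 overlaps 18.6% of the COL18A1 span and was itself higher (log2 fold change 0.29, edgeR FDR 0.0123), at a mean of 126 CPM, and the share of COL18A1 counts from the shared bases was not tested. The other multiplexin, COL15A1, had 14 counts in all.

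The transmembrane chains rose in 3 of 4 cases (background 18.6% higher and 37.8% called). COL23A1 (chromosome 5, 178237618 to 178590393, minus strand) was at 26.8, 26.3 and 17.1 CPM in siControl and at 84.5, 89.9 and 77.0 CPM in siMETTL3. It had the largest fold of all called chains, 3.54-fold (log2 fold change 1.82, SE 0.143, edgeR FDR 1.46e-05), and siControl replicate 3, the shallowest library, had the lowest value. COL13A1 (chromosome 10, 69801867 to 69964275, plus strand), a chain of the neuromuscular synapse, rose 2.67-fold, from 1.30, 2.15 and 2.26 CPM to 4.86, 4.46 and 5.75 CPM (log2 fold change 1.42, SE 0.233, edgeR FDR 0.000354). COL17A1 (chromosome 10, 104031286 to 104085880, minus strand), the hemidesmosome collagen of skin, rose 2.31-fold, from 1.02, 1.15 and 0.996 CPM to 1.80, 3.12 and 2.43 CPM (log2 fold change 1.21, SE 0.296, edgeR FDR 0.00561). COL25A1, which is known from motor neuron innervation of muscle, was at 0.927, 1.25 and 1.73 CPM and at 0.777, 0.827 and 0.682 CPM and did not pass (log2 fold change -0.74, 95% interval -1.50 to 0.03, edgeR FDR 0.124).

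Of the 10 FACIT chains, 1 rose (12.5% of those tested, background 18.6% higher). COL9A2 (chromosome 1, 40300489 to 40317813, minus strand), a chain of the type IX collagen that coats type II fibrils, rose 2.46-fold, from 0.835, 1.80 and 0.929 CPM to 2.72, 3.31 and 2.82 CPM (log2 fold change 1.30, SE 0.303, edgeR FDR 0.00414). Its partners COL9A1 and COL9A3 did not pass (log2 fold changes 0.21 and 0.32, edgeR FDR 0.485 and 0.334). COL10A1, the collagen of growth-plate cartilage, was the remaining chain of at least 10 CPM, at 11.4, 11.9 and 17.8 CPM and at 16.9, 15.6 and 17.3 CPM (log2 fold change 0.29, 95% interval -0.03 to 0.62, edgeR FDR 0.142). Its span lies wholly inside NT5DC1, which was at a mean of 50.8 CPM, so its reads cannot be told apart from those of that gene. Without siControl replicate 3, the library with the highest control value, COL10A1 passed (log2 fold change 0.51, FDR 0.000789).

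The other 19 tested chains that did not pass had mean levels between 0.905 and 8.63 CPM, log2 fold changes between -0.74 and 0.55 and FDR values of at least 0.0629. Their 95% intervals were between 0.639 and 1.86 log2 units wide, so that a difference as small as that of COL4A1 was not detectable in them at this depth. The 7 chains that were not tested (COL1A2, COL5A3, COL4A5, COL4A6, COL12A1, COL15A1 and COL20A1) held between 13 and 55 counts over all 6 libraries, and at most 16 in a single library. Of the 12 chains with a mean of at least 10 CPM, 9 passed (6 higher, 3 lower). Of the 25 tested chains below that level 6 passed, all higher. Over all tested genes of any level 37.8% passed (18.6% higher, 19.2% lower). The shares among all genes above and below 10 CPM were not counted, so this split is only a description.

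Summed over the chains of a class, the make-up of the collagen counts shifted from type IV to type VI and the other classes. The sum over all 44 chains was 803, 771 and 725 CPM in siControl and 1034, 1123 and 1051 CPM in siMETTL3. Type IV took 42.3 ± 0.249% of it in siControl and 22.8 ± 0.0906% in siMETTL3 (SD, n = 3). The type IV sum itself fell less than its share, from 324 ± 15.5 to 244 ± 11.3 CPM, because the total rose. Type VI took 26.4 ± 0.407% and 39.9 ± 0.903%, the other classes took 16.5 ± 0.375% and 27.1 ± 0.704%, and the fibrillar class took 14.8 ± 0.469% and 10.2 ± 0.197%. The fibrillar sum itself overlapped between the groups, at 111 to 116 CPM in siControl and 104 to 117 CPM in siMETTL3, where the rise of COL5A1 and the fall of COL2A1 stood against each other. A pair of chains made up much of the shift: COL4A2 held 32.6 ± 0.311% of the collagen CPM in siControl and 17.0 ± 0.0976% in siMETTL3, and COL6A6 held 11.4 ± 0.531% and 26.7 ± 1.61%. These sums describe the libraries and were not tested. They hold reads from introns and are not scaled to the length of the chains.

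**Figure D3:**
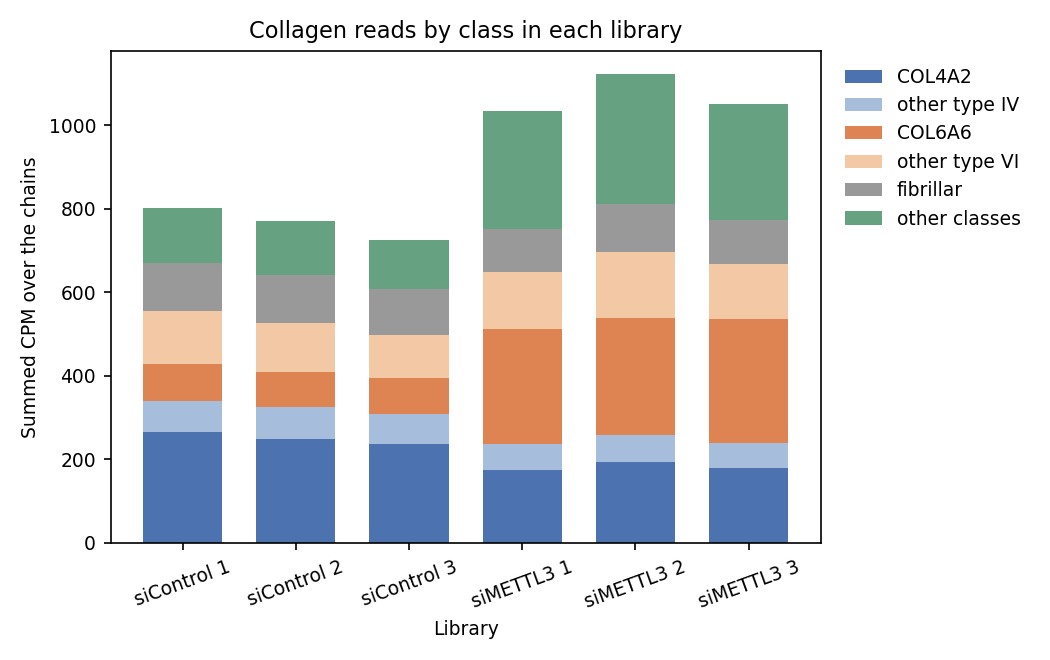
Summed CPM of the 44 collagen chains in each of the 6 libraries, stacked by class with COL4A2 and COL6A6 drawn apart from the rest of types IV and VI. The sum lies at 725 to 803 CPM in siControl and at 1034 to 1123 CPM in siMETTL3, with a smaller COL4A2 part and a larger COL6A6 part in every siMETTL3 library.

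Levels of different chains were compared per kilobase of merged exons (GENCODE release 44), as means over 3 libraries. In siControl, COL4A2 was highest with 13.0 ± 0.723 CPM per kilobase, followed by COL6A1 (10.4 ± 1.12), COL6A6 (9.85 ± 0.142), COL2A1 (9.09 ± 0.833), COL18A1 (5.84 ± 0.764), COL23A1 (5.38 ± 1.25), COL4A1 (4.56 ± 0.194) and COL6A2 (4.08 ± 0.602). The ranges of mean ± SD overlapped among COL6A1, COL6A6 and COL2A1, and between each of the last 4 and the next in that order, so their order is not settled. In siMETTL3, COL6A6 was highest with 32.2 ± 1.31 CPM per kilobase, followed by COL23A1 (19.2 ± 1.49), COL18A1 (16.6 ± 1.56), COL6A1 (13.0 ± 1.69) and COL4A2 (9.44 ± 0.471), and the ranges of COL23A1 and COL18A1 overlapped. Because the counts cover introns, the order depends on the length used. Per kilobase of the whole span the highest levels in siControl were those of COL6A1 (2.47 CPM), COL2A1 (1.92 CPM) and COL4A2 (1.204 CPM), while COL23A1, of whose span exons make up 1.24%, was at 0.0664 CPM. Exons made up between 1.24% (COL23A1) and 49.1% (COL1A1) of the counted span, with a median of 8.55%.

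Chains that share a trimer or a gene neighbourhood were compared within each library by the log2 ratio of their counts. Of the pairs listed for this, 8 had both chains tested, and the 2-sided exact permutation test over 6 libraries cannot give a p below 0.1. Adjusted values are Benjamini-Hochberg values over the 8 pairs. The log2 ratio of COL5A1 to COL5A2 was 0.69, 0.31 and -0.078 in siControl and 1.74, 1.80 and 1.52 in siMETTL3, a difference of 1.38 (exact p = 0.1, adjusted 0.133). The ratio of COL6A1 to COL6A2 was 1.37, 1.37 and 1.48 in siControl and 1.09, 1.09 and 0.97 in siMETTL3, a difference of -0.36 (exact p = 0.1, adjusted 0.133). The ratio of COL4A1 to COL4A2 was -1.96, -1.85 and -1.89 in siControl and -1.72, -1.71 and -1.73 in siMETTL3, a difference of 0.18 (exact p = 0.1, adjusted 0.133). No pair could pass a threshold of 0.05 in a design of this size. The pairs COL4A3/COL4A4, COL8A1/COL8A2 and COL3A1/COL5A2 had differences of 0.47, -0.59 and -0.77 (exact p = 0.1 each, adjusted 0.133). In every pair with an exact p of 0.1 the ratios of the groups did not overlap, which is what that p means with 3 libraries per group. COL9A2/COL9A3 had a difference of 1.08 and COL11A1/COL11A2 of 0.16, with overlapping groups (exact p = 0.2 and 0.6, adjusted 0.229 and 0.6).

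METTL3 methylates adenosines in a short motif of which GGACU, written GGACT in DNA, is the preferred form, and the motif was therefore counted in the canonical transcript of each gene. The chains held a median of 1.52 copies per kilobase (0.581 in COL6A2 to 2.95 in COL16A1), against a median of 0.922 in the other 18955 genes. The median was 1.48 per kilobase in the 12 chains that rose, 2.45 in the 3 that fell and 1.31 in the 22 that did not pass. COL6A6, COL23A1, COL18A1 and COL5A1 held 12, 6, 10 and 12 copies, and COL4A2, COL4A1 and COL2A1 held 16, 16 and 6. The chains' transcripts are also longer (median 6300.5 bases against 2940) and richer in G and C (54.9% against 49.05%) than those of the other genes. The copies are letters in a transcript, and methylation was not measured here.

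Genes that build, bind and break down collagen were taken from 6 lists. Of 25 genes for chain modification and secretion, 3 rose, 5 fell and 17 did not pass (called 32.0%, background 37.8%, median log2 fold change -0.024). P4HB, a subunit of prolyl 4-hydroxylase that is also a disulfide isomerase, was the most abundant of them in CPM and fell, with 304 ± 7.81 CPM in siControl and 231 ± 7.05 CPM in siMETTL3 (log2 fold change -0.40, edgeR FDR 8.09e-05). PPIB, the proline isomerase of the endoplasmic reticulum, fell, with 140 ± 1.76 CPM in siControl and 102 ± 2.96 CPM in siMETTL3 (log2 fold change -0.45, edgeR FDR 3.08e-05), and 22.6% of its span overlaps SNX22, which was also lower. KLHL12, an adaptor for large COPII carriers that export procollagen, fell, with 41.9 ± 2.65 CPM in siControl and 30.9 ± 1.30 CPM in siMETTL3 (log2 fold change -0.44, edgeR FDR 0.000641). PLOD1, a lysyl hydroxylase, rose, with 46.7 ± 2.64 CPM in siControl and 60.3 ± 0.765 CPM in siMETTL3 (log2 fold change 0.37, edgeR FDR 0.000708). SERPINH1, the collagen chaperone HSP47, did not pass (log2 fold change 0.14, edgeR FDR 0.143).

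Of 14 genes for procollagen processing and cross-linking, 7 rose, 3 fell and 4 did not pass (called 71.4%, background 37.8%, median log2 fold change 0.18). ADAMTS14 and ADAMTS2 encode proteinases that remove the N-terminal propeptide of fibrillar procollagens. ADAMTS14 rose from 4.54, 4.30 and 2.92 CPM to 11.95, 11.6 and 11.9 CPM (log2 fold change 1.57, SE 0.158, edgeR FDR 6.31e-06). ADAMTS2, the most abundant gene of the list in CPM, rose from 83.5, 68.2 and 50.6 CPM to 164, 166 and 151 CPM (log2 fold change 1.24, SE 0.164, edgeR FDR 0.00123). The third enzyme of that kind, ADAMTS3, went the other way (log2 fold change -0.33, edgeR FDR 0.00778). PXDN, the peroxidase that cross-links type IV collagen, rose, with 48.1 ± 1.42 CPM in siControl and 64.8 ± 0.418 CPM in siMETTL3 (log2 fold change 0.43, edgeR FDR 0.000113), while both type IV chains with most counts fell. The lysyl oxidase-like genes LOXL1 and LOXL2 rose (log2 fold changes 0.55 and 0.69, edgeR FDR 0.000244 and 0.000383), and 30.8% of the LOXL2 span overlaps ENTPD4. LOX itself fell (log2 fold change -0.46, edgeR FDR 0.0225), with 81.6% of its span inside SRFBP1. Without siControl replicate 2 the number of called genes of this list was 6.

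Of 9 tested collagen receptors, 2 rose, 3 fell and 4 did not pass (called 55.6%, background 37.8%, median log2 fold change -0.0020). DDR2, a receptor tyrosine kinase for fibrillar collagens, had the highest CPM of the list and fell, with 475 ± 16.6 CPM in siControl and 347 ± 15.3 CPM in siMETTL3 (log2 fold change -0.45, edgeR FDR 4.50e-05). ITGB1, the beta subunit of all collagen-binding integrins, fell, with 128 ± 6.71 CPM in siControl and 79.8 ± 3.72 CPM in siMETTL3 (log2 fold change -0.69, edgeR FDR 2.56e-06). ITGA11, an alpha subunit for fibrillar collagen, rose, with 16.9 ± 0.611 CPM in siControl and 24.5 ± 0.895 CPM in siMETTL3 (log2 fold change 0.53, edgeR FDR 0.000372). ADGRG1, an adhesion receptor for type III collagen, rose, with 6.24 ± 1.56 CPM in siControl and 12.5 ± 0.2997 CPM in siMETTL3 (log2 fold change 0.98, edgeR FDR 0.000316). Among 10 tested genes of collagen turnover, 2 rose, 1 fell and 7 did not pass (called 30.0%, background 37.8%, median log2 fold change 0.0024). The gelatinase MMP2 rose, with 60.04 ± 1.53 CPM in siControl and 73.5 ± 1.25 CPM in siMETTL3 (log2 fold change 0.29, edgeR FDR 0.00164). The membrane-type proteinase MMP16 fell, with 221 ± 23.5 CPM in siControl and 169 ± 8.45 CPM in siMETTL3 (log2 fold change -0.38, edgeR FDR 0.00113). The inhibitor TIMP2 rose, with 76.6 ± 15.9 CPM in siControl and 101 ± 1.48 CPM in siMETTL3 (log2 fold change 0.40, edgeR FDR 0.0298), a call lost without any one of siControl replicate 2 (FDR 0.0822) and siMETTL3 replicates 1, 2 and 3 (FDR 0.0644, 0.0752 and 0.0750), and 44.6% of its span overlaps CEP295NL, which rose too. The collagenases MMP1, MMP8 and MMP13 had at most 2 counts in a library.

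The matrix partners held 3 genes that rose, 2 that fell and 7 that did not pass (12 tested, called 41.7%, background 37.8%, median log2 fold change -0.069). AGRN, the basement membrane proteoglycan agrin, fell from 25.6, 29.3 and 23.0 CPM to 7.68, 12.2 and 9.64 CPM (log2 fold change -1.40, SE 0.149, edgeR FDR 1.72e-05). HSPG2, the proteoglycan perlecan of the same membranes, rose, with 31.6 ± 3.92 CPM in siControl and 42.9 ± 3.15 CPM in siMETTL3 (log2 fold change 0.44, edgeR FDR 0.00244). FN1, fibronectin, had log2 fold change -0.93 and SPARC, a collagen-binding glycoprotein, 0.77 (edgeR FDR 5.56e-07 each). Of 9 tested genes for other proteins with a collagen-like helix or fold, EMID1 (log2 fold change 0.56, edgeR FDR 0.00354) and EDA (0.46, edgeR FDR 0.0151) rose. EMILIN1 fell (-0.31, edgeR FDR 0.00322) and 6 did not pass (called 33.3%, background 37.8%, median log2 fold change 0.033). EDA was no longer called without siControl replicate 2 (FDR 0.0712) or siMETTL3 replicate 3 (FDR 0.0734). Over the 6 lists together 43.0% of 79 tested genes were called, 19 higher and 15 lower, against 37.8% of all genes.

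**Figure D4:**
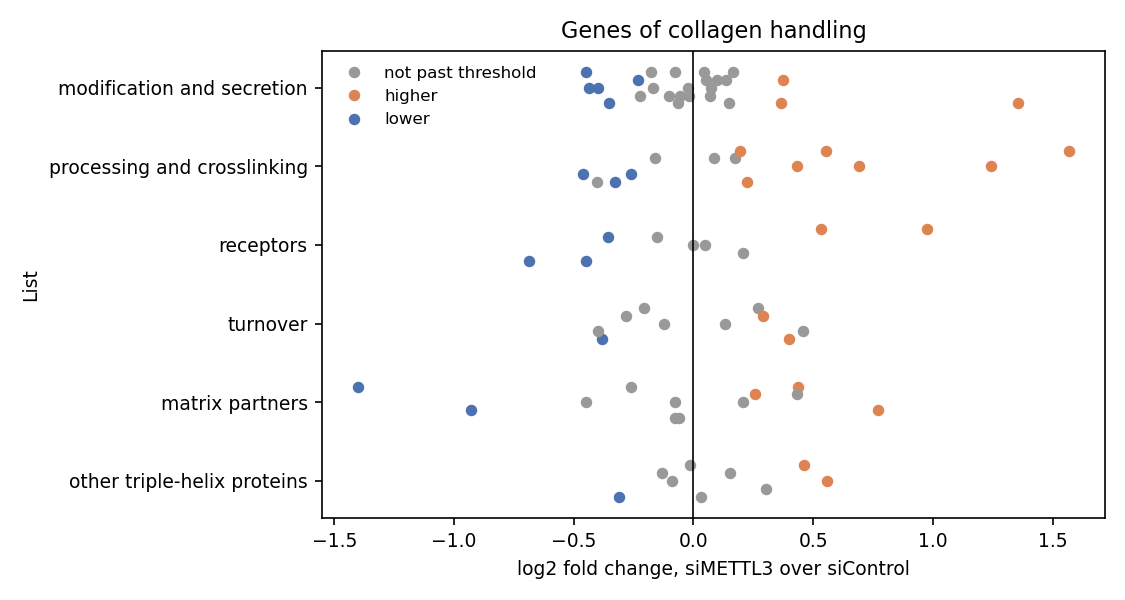
Log2 fold change of siMETTL3 over siControl for each tested gene of the 6 lists of collagen handling, 1 point per gene with vertical offsets only to part the points; orange is higher and blue lower at an FDR of 0.05 over all genes, grey did not pass. In the list of processing and crosslinking 7 genes are higher and 3 lower (called 71.4%, background 37.8%).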

How the data were processed

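The 6 deposited tables hold raw read counts per gene, which the authors made with featureCounts v1.5.3 over whole gene spans of a protein-coding GENCODE release 33 annotation, per the file headers. Introns were therefore counted, reads over several genes were counted for each, and neither strand nor read pairs were used. The submitters' processing notes name FastQC 0.11.5, Trimmomatic 0.36, HISAT2 2.1.0 and GRCh38. From these counts, genes were filtered with filterByExpr, scaled by TMM and tested with edgeR 4.0.16 in R 4.3.3 (robust quasi-likelihood F-test, all 6 libraries, no covariate), and FDR values run over all 15311 tested genes. The SE was derived from the log2 fold change and its F statistic. Libraries of a group differed by more than sampling noise (chi-square per degree of freedom 3.10 to 16.7). Gene structures and transcript sequences came from GENCODE release 44 and promoter windows from RefSeq. The members and lists were chosen with earlier results of these data known. Named were METTL3, all tested chains past the threshold or of at least 10 CPM, and per list up to 4 called genes with the smallest FDR and the most abundant gene, plus a few chosen after their values were seen (COL3A1, COL5A2, COL25A1, SERPINH1, ADAMTS3, LOX and partner chains). Alternatives were other scalings, filters, tests (DESeq2 1.42.0, limma-voom in limma 3.58.1), a replicate block, each library left out, genes without overlaps and, added after the data had been seen, an offset for span length.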

Additional observations from a re-analysis of the deposited data

How the results depend on the processing

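METTL3 stayed lower under every alternative, with a log2 fold change of -0.74 to -0.69 across the fits that each left out a library. TOX4 overlaps 7.90% of the METTL3 span and was itself lower (log2 fold change -0.20, edgeR FDR 0.0431). METTL3 was kept in the set of genes without overlaps, so that setting did not free it of this overlap. With all 6 libraries, other scalings, no filter, other tests, the replicate block and the span length offset each called the same 12 chains higher and the same 3 lower, and keeping genes with 10 or more counts in each library added COL3A1 to the lower ones. On genes without overlaps 11 chains were higher and 1 was lower, because COL18A1, COL4A1 and COL4A2 were not in that set; 1852 of all genes were higher and 1899 lower there, since 9515 genes were tested. Leaving out each library in turn gave 9 to 13 higher and 3 to 4 lower chains, 2091 to 3178 higher and 2119 to 3216 lower genes, and 6 to 11 called genes for processing and crosslinking, 7 to 11 for modification and secretion, 5 to 7 for receptors, 2 to 3 for turnover, 4 to 5 for matrix partners and 2 to 3 for other triple-helix proteins. Of the log2 differences in partner ratios, COL11A1/COL11A2 changed sign without siControl replicate 1 (-0.092), siControl replicate 2 (-0.0056) or siMETTL3 replicate 3 (-0.062), within -0.092 to 0.59, and the cause was not tested. The other ratios kept their sign, at 0.15 to 0.20 (COL4A1/COL4A2), 0.38 to 0.55 (COL4A3/COL4A4), -0.38 to -0.32 (COL6A1/COL6A2), 1.19 to 1.57 (COL5A1/COL5A2), 0.79 to 1.60 (COL9A2/COL9A3), -0.79 to -0.38 (COL8A1/COL8A2) and -0.96 to -0.55 (COL3A1/COL5A2). Libraries with the same replicate number correlated at 0.0520, 0.0595 and 0.103 in their deviations from the group means. Pairs across the groups with different numbers lay lower, between -0.0973 and 0.0479. The labels do not say that a number marks a shared culture, and whether it does was not tested. The fit with a replicate block called 6166 genes, against 5786 without a block. With the block 12 chains were higher and 3 lower, and the log2 fold change of METTL3 was -0.71. Of 443 values of single named genes in the other settings 1 was no longer past the threshold (TIMP2 without a filter), and of 246 values with a library left out 14 were no longer past it and 2 newly passed it; 0 changed sign.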

Other observations

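The genes around the called chains were looked at after the values had been seen. On chromosome 21, COL18A1, COL6A1 and COL6A2 lie in one stretch, and from ADARB1 (start 45073853) to LSS (end 46228824) 9 of 10 tested genes were higher in siMETTL3 and 0 were lower (edgeR FDR under 0.05), against 18.6% of all tested genes and 20.6% of the 136 tested genes of chromosome 21. The log2 fold changes were 0.76 for ADARB1, 0.15 for POFUT2 (FDR 0.232), 1.501 for COL18A1, 0.29 for SLC19A1, 0.53 for PCBP3, 0.32 for COL6A1, 0.67 for COL6A2, 1.46 for FTCD, 0.66 for SPATC1L and 0.25 for LSS. The stretch was picked for its values, so the count is a description.

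The nearest tested genes on both sides of other called chains were uneven. PIK3R4, whose span begins 0.779 kilobases after COL6A6, had a log2 fold change of -0.086 (edgeR FDR 0.263), where COL6A6 had 1.71 and COL6A5, on the other side of COL6A6, 1.73. PHYKPL and CLK4, the tested genes next to COL23A1, had log2 fold changes of -0.068 and 0.17 (edgeR FDR 0.342 and 0.264). RAB20, 9.86 kilobases after COL4A2, rose (log2 fold change 1.013, edgeR FDR 0.000140) where COL4A2 and COL4A1 fell, and IRS2, 362 kilobases away on the COL4A1 side, fell with them (-0.49, edgeR FDR 0.000736). Next to COL5A1, OLFM1, an olfactomedin of neurons whose span begins 231 kilobases further on, rose too (log2 fold change 1.73, edgeR FDR 2.06e-09), while RXRA on the other side did not pass (0.46, edgeR FDR 0.114). TMEM106C, 4.09 kilobases from COL2A1, fell too (log2 fold change -0.58, edgeR FDR 3.16e-05), and SENP1 on the other side did not pass (-0.064, edgeR FDR 0.459).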
